A study of Mus musculus with 8 samples.

Results

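Closely spaced CTCF clusters are runs of neighbouring binding regions, called chains here. A chain was formed by joining CTCF regions of the NMDA list on chromosomes 1 to 19, X and Y wherever the summits of neighbouring regions lay at most 5 kb apart, and chains of 3 or more regions were kept. This gave 805 chains with 2611 member regions, which is 7.22% (95% Wilson interval 6.95 to 7.49) of the 36186 regions on those chromosomes. The same step on the control list gave 686 chains with 2224 members, or 6.58% (6.32 to 6.85) of 33815 regions. Members were chosen by the positions of their summits alone, so their closeness is a property of the selection and was not tested.

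ChIP-seq, the sequencing of DNA that is precipitated with an antibody to a bound protein, located CTCF in primary cortical neurons of wild-type Swiss-Webster mouse embryos taken at embryonic day 16 and grown to day 13 in vitro. The NMDA group received 50 µM NMDA, a drug that activates NMDA-type glutamate receptors, for 10 minutes and then 50 minutes of recovery in medium without the drug. The control group is labelled as without that treatment, and both groups had 2 biological replicates. A growth protocol that all samples share also mentions etoposide, and no label gives it as any sample's treatment. The cell type is the labels' own, since binding regions show no marker expression with which to check it. Input libraries were not used here.

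Each condition is a single list of regions that the authors found reproducible over both replicates. No difference between the NMDA and control lists could therefore be set against the spread between replicates. The intervals below cover counting error only, and neighbouring regions are not independent. The read depth is unknown because the lists hold no counts. The signal of a region is the authors' −log10 p-value, which in the NMDA list is the sum of the values of both replicates. It grows with depth, so the size of a signal in one list cannot be read against that in the other. Signals are given to describe each list, and a comparison between lists uses percentiles within each list, where 100 is the strongest region.

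CTCF recognises a long DNA motif through its zinc fingers and, with the ring-shaped cohesin complex, marks the anchors of chromatin loops and the boundaries of contact domains. Cohesin is held at a CTCF site in a way that depends on the orientation of the motif. Clusters of several sites within a short stretch of DNA are known at domain boundaries. In neurons such loops bring distal enhancers to genes that respond to activity.

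Some members lay on promoters, and some of these promoters carry the short core of the CTCF motif. The 5 below are shown because they join the binding regions of chains to DNA sequence, and they were chosen after their values were seen as the 5 with the highest signal among named genes with the motif before the start. Each line gives the 250 bases before the transcription start from RefSeq (GRCm38.p6), written 5′ to 3′ on the gene's strand. Capitals mark the match to the motif searched on both strands, which reads CCA, any 2 bases, AG, any 2 bases and GGC.
Palm: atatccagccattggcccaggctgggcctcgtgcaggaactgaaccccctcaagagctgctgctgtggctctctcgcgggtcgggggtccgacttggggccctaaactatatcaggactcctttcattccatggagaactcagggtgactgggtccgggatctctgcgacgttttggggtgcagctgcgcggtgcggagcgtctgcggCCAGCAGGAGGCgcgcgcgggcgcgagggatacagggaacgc
Nudt17: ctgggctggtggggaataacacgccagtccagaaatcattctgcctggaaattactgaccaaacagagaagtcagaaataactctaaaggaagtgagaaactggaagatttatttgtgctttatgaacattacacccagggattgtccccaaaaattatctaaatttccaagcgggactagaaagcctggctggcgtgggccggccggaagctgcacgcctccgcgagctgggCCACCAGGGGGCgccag
Cul5: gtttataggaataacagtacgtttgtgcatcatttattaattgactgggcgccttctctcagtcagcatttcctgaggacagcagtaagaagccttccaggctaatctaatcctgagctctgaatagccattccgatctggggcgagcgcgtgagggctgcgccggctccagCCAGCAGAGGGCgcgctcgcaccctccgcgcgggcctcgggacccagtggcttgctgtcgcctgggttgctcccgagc
Slc35e4: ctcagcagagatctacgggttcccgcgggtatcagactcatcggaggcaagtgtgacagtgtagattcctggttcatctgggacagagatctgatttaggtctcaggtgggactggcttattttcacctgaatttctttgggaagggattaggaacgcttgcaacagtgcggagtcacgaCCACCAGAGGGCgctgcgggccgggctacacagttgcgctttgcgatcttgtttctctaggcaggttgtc
Hs1bp3: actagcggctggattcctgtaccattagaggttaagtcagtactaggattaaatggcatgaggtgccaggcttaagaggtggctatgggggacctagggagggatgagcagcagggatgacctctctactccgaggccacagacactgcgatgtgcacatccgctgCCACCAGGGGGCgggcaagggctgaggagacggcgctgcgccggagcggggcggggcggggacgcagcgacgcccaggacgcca

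These promoters lie at chr10:79793322-79793571 on the plus strand (Palm), chr3:96708561-96708810 on the minus strand (Nudt17), chr9:53667508-53667757 on the minus strand (Cul5), chr11:3914665-3914914 on the minus strand (Slc35e4) and chr12:8313183-8313432 on the plus strand (Hs1bp3). Palm encodes paralemmin, a phosphoprotein of the plasma membrane, and its region is the strongest of the longest chain. Cul5 encodes a scaffold of ubiquitin ligases, Nudt17 a hydrolase of the Nudix family and Slc35e4 a member of a solute carrier family. The motif lay 47 bp from the NMDA summit at Palm, 8 bp at Nudt17, 4 bp at Cul5, 4 bp at Slc35e4 and 13 bp at Hs1bp3. The signal of these regions was 838 at Palm, 907 at Nudt17, 761 at Cul5, 632 at Slc35e4 and 568 at Hs1bp3 in the NMDA list. Each of the 5 overlapped a control region, as did almost every region in the strongest quintile of the NMDA list. Their percentiles in that list ran from 97.5 to 99.7, which follows from the choice by highest signal.

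Of the promoters in the RefSeq table, taken as 250 bases before and 50 after the start, 480 overlapped a member of an NMDA chain. The motif was found in 7.08% (5.11 to 9.74) of these, in 5.54% (5.00 to 6.14) of the 6240 that overlapped another NMDA region and in 1.60% (1.45 to 1.76) of the 26131 that overlapped none. Over all 32851 promoters the share was 2.43%. With control chains the shares were 7.63% of 380 promoters, 5.39% of 6252 and 1.64% of 26219. The intervals for promoters at a member and at another region overlap in the NMDA list. A match is a description of the letters and does not show that CTCF sits on them, and no match says only that these letters are not in the window.

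Most chains were of the smallest size. The NMDA list had 647 chains of 3 regions, 128 of 4, 24 of 5, 5 of 6 and 1 of 8. The control list had 555 chains of 3, 104 of 4, 21 of 5, 5 of 6 and 1 of 8. Relative to the length of each list there were 22.2 chains per 1000 regions with NMDA and 20.3 in control. When the NMDA list was limited to as many of its strongest regions as the control list has, it gave 645 chains. Against the 686 in control, the order of the counts thus turned. This limit removes the weakest NMDA regions, so length and signal change together, and the cause of the difference in counts was not tested.

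**Figure D1:**
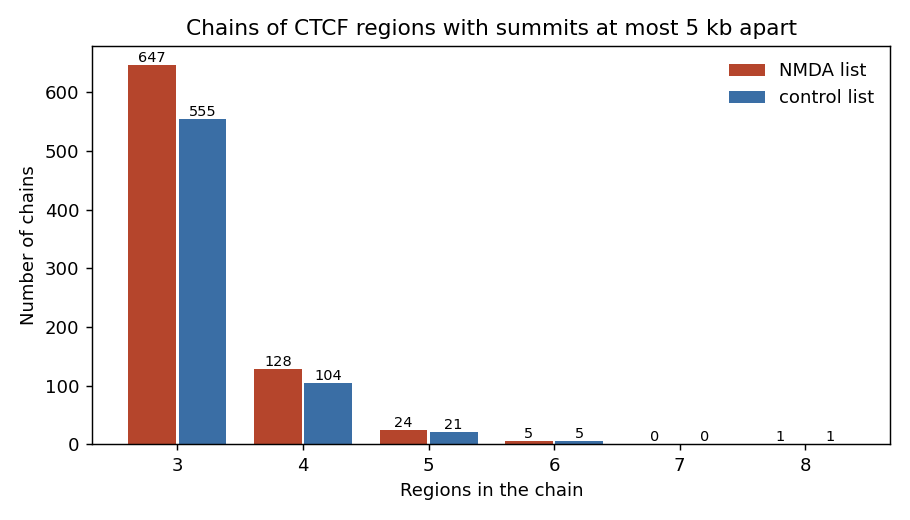
Number of chains (vertical axis) by the number of regions in the chain (horizontal axis) in the NMDA and the control list, with the count above each bar. Chains of 3 made up 647 of the 805 NMDA chains and 555 of the 686 control chains.

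The clusters had nearly the same geometry in both lists. Neighbouring summits of a chain were a median of 2974 bp apart (quartiles 2118 and 3894) with NMDA and 2918 bp (2132 and 3916) in control, against 24619 and 26839 bp over all neighbours of the lists. The gap between the edges of neighbouring regions had a median of 1434 bp in NMDA chains and 1576 bp in control chains. Regions whose edges lay less than 100 bp apart made up 4.60% of the neighbours in NMDA chains and 3.64% in control chains. The distance from the first to the last summit had a median of 6475 bp in NMDA chains and 6488 bp in control chains. At the threshold itself the NMDA list had 588 neighbouring summits 4.5 to 5 kb apart, just inside, and 571 that were 5 to 5.5 kb apart, just outside. The control list had 534 and 489.

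Members were wider than other regions, with a median of 1275 bp in NMDA chains and 1176 bp outside them, and of 1208 bp in control chains and 1118 bp outside them. They also lay among more genes. The mean number of protein-coding genes with an end within 10 kb of a member was 1.10 in NMDA chains and 0.715 outside them, and 1.11 in control chains and 0.726 outside them.

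The share of regions in chains differed between chromosomes. In the NMDA list it was highest among the autosomes on chromosome 10, at 11.3% (9.88 to 12.8), followed by chromosome 5 at 9.90% and chromosome 17 at 8.82%. In the control list chromosome 10 had 8.90%, chromosome 11 had 8.89% and chromosome 5 had 8.54%. Chromosome X had the lowest share in both, with 15 of 831 NMDA regions or 1.81% (1.10 to 2.96) and 12 of 729 control regions or 1.65% (0.944 to 2.86). On chromosome Y, 7 of 12 NMDA regions and 9 of 11 control regions were members. Sequences on Y include near-identical copies, so the placement of reads there is uncertain.

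Chains joined strong and weak regions. Members had a median signal percentile of 48.7 (quartiles 21.6 and 77.5) in the NMDA list, against 50.1 outside chains, and 50.7 (23.4 and 78.5) in the control list, against 49.9 outside chains. The median −log10 p of NMDA members was 87.3, against 91.2 outside chains, and that of control members 169, against 165 outside chains. Members were more often at either extreme. Of NMDA members 12.2% (11 to 13.5) were in the strongest decile of the list and 12.1% (10.9 to 13.4) in the weakest decile, against 9.83% and 9.83% of regions outside chains. Of control members 12.8% (11.5 to 14.3) were in the strongest decile and 11.4% (10.2 to 12.8) in the weakest, against 9.80% and 9.90% outside chains.

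A typical chain of 3 held a strong, a middling and a weak region. In the 647 NMDA chains of 3 the median percentile was 80.7 for the strongest region, 48.5 for the middle one and 17.6 for the weakest. Consecutive triplets of regions outside chains, the background for such an ordering, had 78.2, 50.1 and 20.8. In control chains of 3 the values were 81.7, 51.4 and 19.1, against 78.4, 50.1 and 21.0 outside chains. The range within a triplet had a median of 51.7 points in NMDA chains, against 48.3 outside them, and of 50.1 points in control chains, against 48.5 outside them. The ordering itself follows from sorting 3 values, and the chains differed from the background by a few points. The strongest region was the middle one by position in 31.4% (27.9 to 35.1) of NMDA chains of 3 and 32.6% (28.8 to 36.6) of control chains of 3, and both intervals include the share of 1 in 3. Over all sizes, the strongest region of an NMDA chain had a median of 6.03 times the −log10 p of the weakest (quartiles 3.28 and 10.3). In control chains it had 4.65 times (2.79 and 8.65). These ratios of signal describe each list and are not read against each other.

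**Figure D2:**
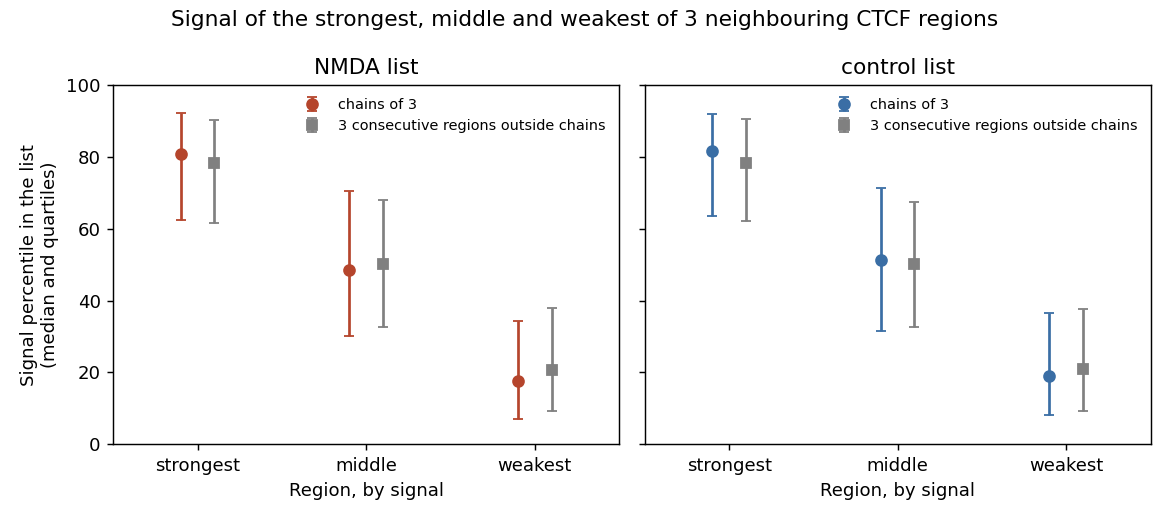
Signal percentile within the list (vertical axis) of the strongest, middle and weakest of 3 neighbouring regions, in chains of 3 (circles) and in consecutive regions outside chains (squares), for the NMDA list on the left and the control list on the right. Points are medians and bars run between the quartiles. In the NMDA list the medians are 80.7, 48.5 and 17.6 in chains, against 78.2, 50.1 and 20.8 outside them.

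The NMDA list carries a −log10 p for each replicate. The file does not say which replicate each column holds, so they are named by their order. Members had a median of 34.0 in the first column and 51.7 in the second, and regions outside chains had 31.8 and 56.8. The second column was the higher in 76.6% (74.9 to 78.2) of members and 79.6% (79.1 to 80.0) of regions outside chains. Ranks in both columns went together across the 2611 members, with a Spearman correlation of 0.892, and of 0.858 across regions outside chains. These are descriptions across regions of the same libraries. The list kept only regions found reproducible over both replicates, a selection that favours high correlations. The summits called in each replicate lay a median of 36.0 bp apart in members and 32.0 bp outside chains. Chaining the same filtered regions by the summits of the first column alone gave 798 chains and by those of the second 793.

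Most members were also found in the other list. Of the 2611 NMDA members 2204, or 84.4% (83.0 to 85.8), overlapped a control region by at least 1 bp, against 84.5% (84.1 to 84.9) of regions outside chains and 84.5% of the whole list. The difference was −0.0734 percentage points (95% Newcombe interval −1.57 to 1.32). Of the control members 92.1% (90.9 to 93.2) overlapped an NMDA region, against 90.7% outside chains and 90.8% of the whole list, a difference of 1.44 points (0.210 to 2.54). Overlap rose steeply with signal. In the weakest quintile of the NMDA list 47.9% (44.0 to 51.8) of members overlapped a control region, against 44.7% outside chains. In the next quintiles these shares were 83.3% and 80.7%, 99.1% and 96.7%, and 100% and 99.7%, and in the strongest 596 of 596 members and 6641 of 6642 other regions overlapped. The difference had an interval above 0 in the middle quintile, at 2.40 points (0.907 to 3.13), and in the weakest quintile of the control list, at 6.60 points (2.23 to 10.7).

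**Figure D3:**
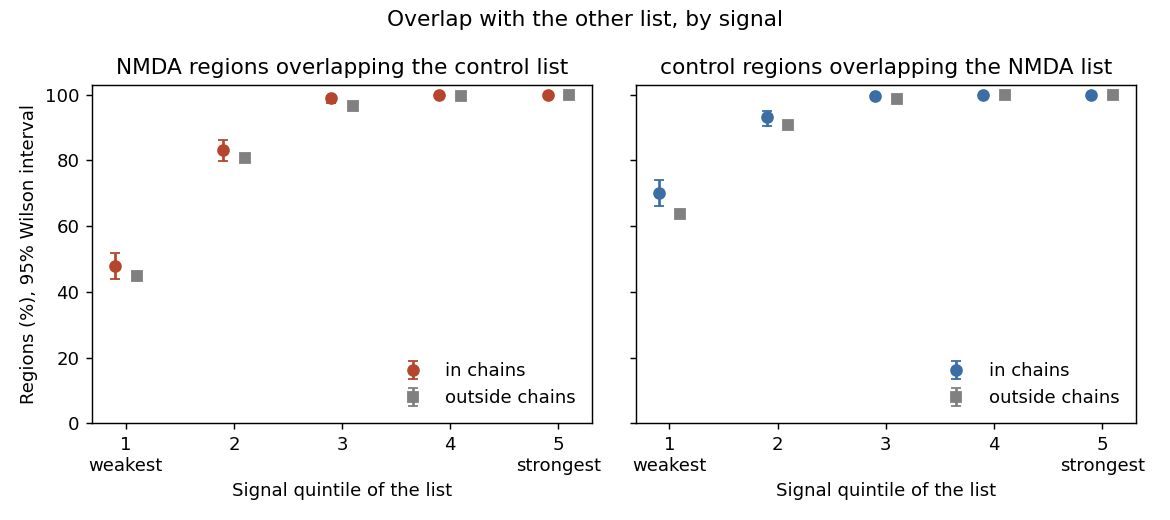
Share of regions that overlap the other list by at least 1 bp (vertical axis, percent, bars are 95% Wilson intervals) by signal quintile of the list (horizontal axis), for members of chains (circles) and regions outside chains (squares), with the NMDA list on the left and the control list on the right. In the weakest quintile 47.9% of NMDA members overlapped a control region, against 44.7% outside chains, and 70.2% of control members overlapped an NMDA region, against 63.6% outside chains.

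The sign of that difference in the NMDA list depended on the settings. When both regions had to share 50% of their length it was −4.28 points (−6.02 to −2.62), and with summits within 100 bp −4.11 points (−5.87 to −2.43). With control regions extended by 500 bp on each side it was 1.95 points (0.554 to 3.25), with an IDR of 0.01 or better in both lists 3.08 points (1.06 to 4.91), and standardised over signal quintiles 1.69 points (0.515 to 2.87). It was also above 0 with summits at most 10 kb apart, in chains of 4 or more and with lists of equal size, at 0.749, 1.06 and 0.686 points, with intervals that include 0.

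Within a chain, the strongest region was the one most often shared. In NMDA chains of 3, 97.5% of the strongest, 88.3% of the middle and 66.3% of the weakest regions overlapped a control region. In control chains of 3 the shares that overlapped an NMDA region were 98.7%, 95% and 81.4%. The 407 members that overlapped no control region, called NMDA-only, had a median signal of 26.7 and a highest signal of 105. Beside these 407 of 2611 members, 15.5% of all NMDA regions overlapped no control region. In the replicate columns they had medians of 11.4 and 14.9. They were 15.4% (13.7 to 17.2) of the members at the edge of a chain and 15.9% (13.8 to 18.3) of those inside it, and these intervals overlap. Of the control members, 175 were control-only, against 9.22% of the whole control list. Where NMDA members and control regions overlapped, the NMDA percentile minus the control percentile had a median of 2.19 points in members (quartiles −3.67 and 9.09) and 2.25 outside chains.

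Whole chains were matched less often than single regions. A matched chain needs several regions of the other list that themselves form a chain, and a matched region needs only an overlap. The definition itself thus favours this order, and whether the shares depart from what it would give was not tested. Of the NMDA chains 464, or 57.6% (54.2 to 61.0), overlapped a control chain, and these were 67.6% (64.0 to 71.0) of the control chains, since each paired with a different one. The number of regions was the same in both lists in 385 of the 464 pairs, higher with NMDA in 43 and higher in control in 36. Every region of the chain was shared in 470 NMDA chains, or 58.4% (54.9 to 61.7), and in 530 control chains, or 77.3% (74.0 to 80.2). Longer chains were matched more often. The share was 54.3% (50.4 to 58.1) of NMDA chains of 3 and 71.5% (64.0 to 78.0) of those of 4 or more, and 64.0% (59.9 to 67.8) of control chains of 3 and 83.2% (75.9 to 88.6) of those of 4 or more. A longer chain has more regions with which to meet a chain of the other list, and the cause of the difference was not tested. With chains of 4 or more required in both lists, 50.6% (42.9 to 58.3) of the NMDA chains overlapped a control chain.

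Few unmatched chains were empty in the other list. Of the 341 NMDA chains without a control chain, 282 had a control region at some of their regions and none at others, 47 had every region shared with neighbours joined into 1 control region, 8 had control summits too far apart and 4 had no control region. Of the 222 control chains without an NMDA chain these counts were 123, 89, 8 and 2. Control regions numbered 2 at 248 of the 341 unmatched NMDA chains, so most fell short of a control chain by 1 region. NMDA regions numbered 2 at 170 of the 222 unmatched control chains. Unmatched chains were the weaker ones: the median percentile of a chain was 34.7 in NMDA chains without a control chain, against 56.1 in those with one, and 42.9 in control chains without an NMDA chain, against 53.3 in those with one.

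**Figure D4:**
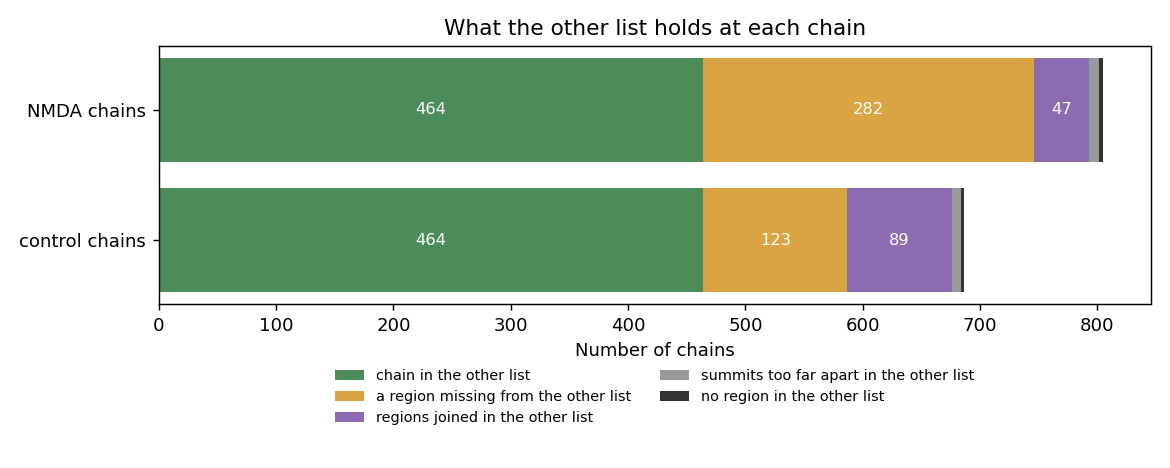
Number of chains (horizontal axis) in the NMDA list (upper bar) and the control list (lower bar) by what the other list holds at the chain. Both bars have 464 chains matched by a chain. A missing region accounts for 282 NMDA and 123 control chains, and regions joined in the other list for 47 NMDA and 89 control chains.

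Chains sat within 1 kb of an end of a protein-coding gene slightly more often than other regions. The summit lay there for 488 NMDA members, or 18.7% (17.2 to 20.2), against 17.1% outside chains and 17.2% of the whole list. The difference of 1.62 points (0.116 to 3.21) no longer had an interval above 0 under 6 of 9 other settings, among them transcription starts alone, where it was 0.140 points (−1.27 to 1.65). For control members the share was 18.6%, against 18.0% outside chains and 18.0% of the whole list, a difference of 0.587 points (−1.03 to 2.31). At transcription starts it was 14.4% of the 2168 control members on chromosomes that the promoter table covers, against 16.3% outside chains, a difference of −1.83 points (−3.31 to −0.236). At least 1 summit lay at a gene end in 47.0% of NMDA chains and 46.6% of control chains, and 2 or more in 12.4% and 12.2%. Summits inside genes made up 55.8% (53.9 to 57.7) of NMDA members, against 54.4% outside chains and 54.5% of the whole list. They made up 51.6% (49.5 to 53.6) of control members, against 54.9% outside chains and 54.7% of the whole list, a difference of −3.34 points (−5.49 to −1.19).

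NMDA-only members lay inside genes more often than shared members, in a comparison added after the data were seen. The share was 65.1% (60.4 to 69.6) of the 407 NMDA-only members and 54.1% (52.0 to 56.2) of the 2204 shared members, a difference of 11 points (5.8 to 16). With summits at most 10 kb apart this difference was 5.39 points (2.26 to 8.44), and it had an interval that includes 0 at 2.5 kb (9.88, −2.75 to 21.0) and in chains of 4 or more (7.98, −2.77 to 18.1). Outside chains the share inside genes was 57.7% of NMDA-only and 53.8% of shared regions, a difference of 3.94 points (2.48 to 5.40). NMDA-only members exceeded NMDA-only regions outside chains by 7.38 points (2.45 to 12.1). Signal moved with this result: in the weakest quintile of the list the shares were 65.0% of NMDA-only and 61.9% of shared members, a difference of 3.10 points (−4.5 to 10.7). In the control list 58.9% of the 175 control-only members lay inside genes, against 51.0% of shared members, a difference of 7.91 points (0.192 to 15.3). Control-only members differed from control-only regions outside chains by −4.40 points (−12.0 to 2.84).

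A gene was taken to host a chain when at least 2 summits of the chain lay inside its span. Of 21883 protein-coding genes 455, or 2.08%, hosted an NMDA chain and 347, or 1.59%, a control chain. With the NMDA list limited to the size of the control list the number was 344, against 347 in control. Both lists had a chain in 224 genes, which is 49.2% (44.7 to 53.8) of NMDA hosts and 64.6% (59.4 to 69.4) of control hosts. Host genes were long, with a median span of 36765 bp for NMDA hosts and 38987 bp for control hosts, against 17170 bp for all protein-coding genes. The share of genes with an NMDA chain was 0.0913% in the shortest quintile of genes and 4.09% in the longest, and 0.0685% and 3.15% for control chains. A long gene has more room for the 2 summits that a host needs, so the definition itself favours long genes. Hosts were not compared with other genes of like length or number of regions. In a comparison added after the data were seen, a host gene was present for 63.6% (58.4 to 68.6) of NMDA chains without a control chain. The share was 49.4% (44.8 to 53.9) of those with one, a difference of 14.3 points (7.36 to 21.0). With summits at most 10 kb apart this difference was 5.53 points (0.959 to 10.0). It had an interval that includes 0 at 2.5 kb (14.0, −3.51 to 30.9) and in chains of 4 or more (2.72, −12.4 to 17.7). Among control chains formed at 5 kb the difference was 1.98 points (−5.98 to 9.90).

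The longest NMDA chain had 8 regions at chr10:79767042-79796397 (mm10) and ran across Rnf126, a ubiquitin ligase gene, Fstl3, which encodes a secreted antagonist of activins, the protease gene Prss57 and Palm. Its signals along the chromosome were 290, 39.1, 42.9, 613, 99.7, 361, 838 and 33.7. Those regions with 39.1 and 33.7 overlapped no control region, and the other 6 were shared. The first replicate column had 331 and the second 507 at the strongest region, at the Palm start, and 9.67 and 24.0 at the weakest, inside Palm. Strong and weak regions were thus interspersed along the chain, in both columns.

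Espn, which encodes an actin-bundling protein of stereocilia, held a chain of 6 at chr4:152130364-152144250. The signals were 93.5, 216, 178, 457, 221 and 30.6 with NMDA. The control chain there had 5 regions. The first 5 NMDA regions were at percentiles 50.9, 78.0, 71.8, 95.4 and 78.7 of their list, and the control regions at 55.2, 74.0, 56.1, 98.2 and 66.2 of theirs. The last NMDA region, with values of 8.91 and 21.7 in the replicate columns, had no counterpart. A chain of 6 at chr11:96774520-96791761 spanned the sorting nexin gene Snx11 and Cbx1, which encodes a heterochromatin protein. Its last 2 regions, both in Cbx1, had 21.8 and 27.8 and were NMDA-only.

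A pair of further chains of 6 lay at chr10:74920498-74940077, where the nearest gene end was that of Rsph14 at 20305 bp, and at chr5:113167115-113182532, inside a gene model without an established name. In both every region was shared. Of the chains of 5 with the highest summed signal, the first was at Fosb and Rtn2 and is described with the immediate early genes. The next lay 5017 bp from Klrb1b, a receptor gene of natural killer cells, with signals of 296, 880, 102, 65.7 and 68.2 and all regions shared. A chain of 5 at Scarb1, the receptor gene for high-density lipoprotein, had 342, 608, 98.7, 29.7 and 106, and the region with 29.7 was NMDA-only. A chain of 5 at chr8:84697082-84709635 ran across Trmt1, a tRNA methyltransferase gene, Lyl1 and the transcription factor gene Nfix, with 158, 187, 226, 20.5 and 592. Its region with 20.5, inside Nfix, was NMDA-only. In each chain of these 3 paragraphs with NMDA-only regions, those regions were the weakest of the chain.

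Some of the strongest regions of the list were clustered with every member shared. Among the chains with every region shared, that with the highest summed signal lay on Y, with 2174, 1324 and 507, in a part of the genome where copies make placement uncertain. The next of these, at chr5:130852999-130863207, lay 7259 bp from Caln1, a gene for a neuronal calcium-binding protein, with 1505, 247 and 174. A chain at chr6:91276947-91288165, 5250 bp from the extracellular matrix gene Fbln2, had 549, 333 and 818, and 1 at chr7:16999167-17007938, at the phosphatase gene Ppp5c, had 680, 799 and 98.1. The fifth of these lay 24114 bp from Psd2, with 165, 62.2 and 1295. Each of these 5 overlapped a control chain, which their choice by shared regions made likely.

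Only 4 NMDA chains met no control region, and their regions were weak. The strongest, at chr5:140635680-140644858 inside Ttyh3, a gene of the tweety family of membrane proteins, had 43.6, 29.0 and 48.7. The first replicate column had 12.1, 13.2 and 19.5 there and the second 31.5, 15.8 and 29.2. The others lay at Wscd2 (47.8, 38.5 and 28.1), at Rgs17, a regulator of G protein signalling (43.9, 19.1 and 19), and at Bicral, a subunit gene of a chromatin remodelling complex (22.0, 33.0 and 21.3). None of these 12 regions was above the 30.5 percentile of the NMDA list.

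The control chains without an NMDA chain included strong ones. At Dnajc11, which encodes a mitochondrial protein, the control list had 4 regions at chr4:151971903-151982128 with 231, 209, 623 and 1019. All 4 fell within 1 NMDA region of 11145 bp, the widest of the list, at percentile 99.9 of its list and with a summit 11 bp from that of the strongest control region, at 98.0 of its own. At Clip2, a gene for a microtubule-binding protein, control regions of 417, 57.2, 834 and 480 fell within 2 NMDA regions at percentiles 89.3 and 95.2. At Arrdc2 and Kcnn1, which encodes a calcium-activated potassium channel, regions of 135, 597, 985 and 63.8 fell within 2 NMDA regions at percentiles 94.1 and 97.2. At Plekhh3 and Cntnap1, a gene for an adhesion protein of myelinated axons, regions of 69.6, 945, 384 and 343 fell on 3 NMDA regions at percentiles 21.9, 96.9 and 79.7. Signal was thus present with NMDA at each of these 4 places and was divided into fewer regions.

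**Figure D5:**
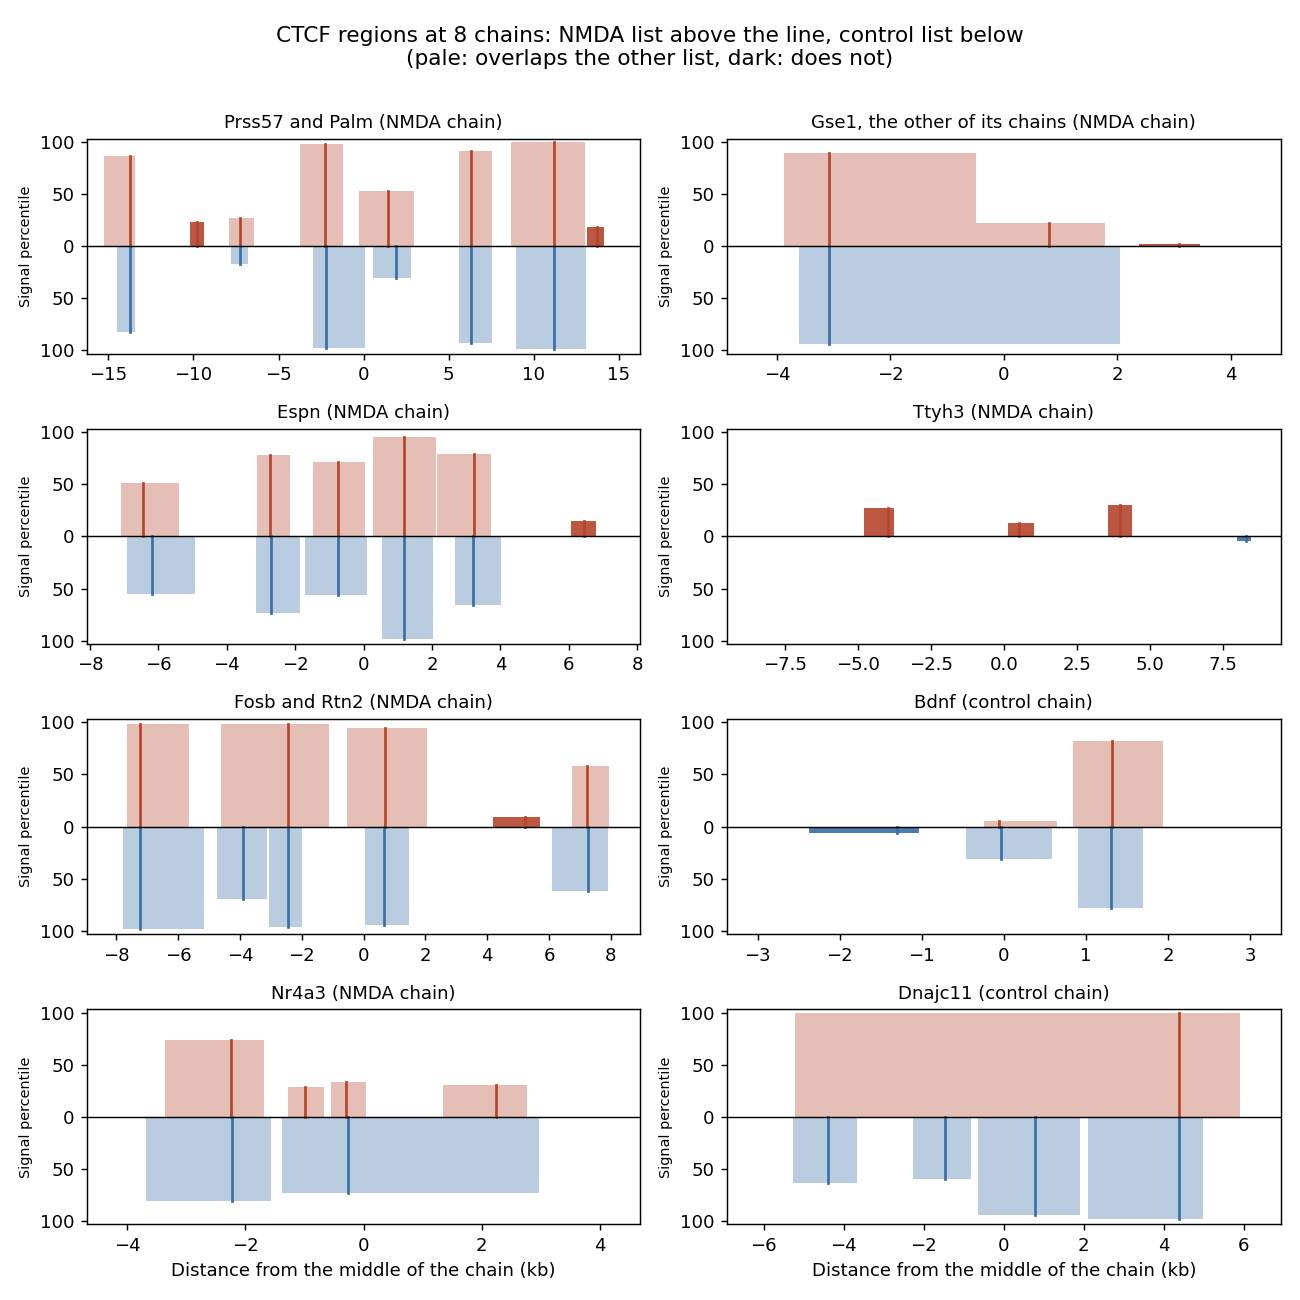
CTCF regions at 8 chains, with the NMDA list above and the control list below the line. Boxes span the regions and their height is the signal percentile within the list (vertical axis), lines mark summits, pale boxes overlap the other list and dark ones do not, and the horizontal axis is the distance from the middle of the chain in kb. At Dnajc11 a single NMDA region of 11145 bp lies over 4 control regions, and at Nr4a3 a single control region of 4338 bp lies under 3 NMDA regions.

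Several of the genes with the most members were long, but Espn spans 32084 bp and Myh7b 23065 bp. With NMDA, Espn had 6 members in 1 chain, Gse1 6 in 2 chains, and Cdh13, which encodes a cadherin anchored to the membrane by a lipid, 6 in 2 chains. Genes with 5 included Arhgef10l, the homeobox gene Pknox2, the phosphatase gene Ppm1h and the myosin gene Myh7b. In the control list genes with 5 included Gse1, Ripor3, Ppm1h, Myh7b, Espn and, named after its values were seen, Ltbp4. Because of such ties the naming rule took only some of the genes with 5 members in each list. Arhgef10l had 316, 33.8, 196, 33.5 and 24.2 with NMDA, of which the last 2 were NMDA-only. Pknox2 had 37.4, 115, 142, 186 and 69.4, of which the first was NMDA-only. In Myh7b the control regions had 507, 122, 318, 47.9 and 133, and in Ppm1h 342, 53.1, 93.6, 131 and 239, and each of these overlapped an NMDA region. Gse1 spans 352883 bp and held 30 NMDA and 28 control regions in all. Cdh13 spans 1184913 bp and held 17 NMDA and 15 control regions, and it hosted no control chain. In its NMDA chains, with 27.9, 200 and 24.2 and with 35.8, 163 and 25.5, the regions with 24.2 and 35.8 were NMDA-only. The second Gse1 chain had 327, 37.9 and 20.4, where the first 2 lay within 1 control region of 5644 bp and the third was NMDA-only.

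Among 12 lists of genes, counts are given beside the 2.08% of all protein-coding genes that hosted an NMDA chain and the 1.59% that hosted a control chain. Immediate early genes, whose transcription starts soon after neuronal activity, hosted a chain in 3 of 31 cases with NMDA, or 9.68% (3.35 to 24.9), and in 0 of 31 in control, which allows a share of up to 11% by the Wilson interval. The 3 were Fosb, a gene for a subunit of the transcription factor AP-1, Nr4a3, a gene for an orphan nuclear receptor, and Klf10, a zinc finger transcription factor gene. They were also hosts with the NMDA list limited to the size of the control list. With any member within 1 kb of the span there were 4 genes with NMDA and 2 in control, against 3.59% and 2.95% of all genes.

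At none of the 3 was the locus empty in control. At Fosb the NMDA chain of 5 ran from the reticulon gene Rtn2 into Fosb (chr7:19295620-19311241) with 686, 722, 443, 26.2 and 116. The region with 26.2 lay inside Fosb, had 13.4 and 12.8 in the replicate columns and was NMDA-only. It made up the second summit inside the gene. The other 4 were at percentiles 98.7, 98.9, 94.9 and 57.8 of the NMDA list, and the strongest control regions they overlapped at 97.8, 96.6, 94.1 and 61.4 of the control list. At Nr4a3 (chr4:48042442-48048567) the NMDA regions had 191, 45.9, 53.3 and 49.0, and the last 3, at percentiles 28.7, 33.4 and 30.6 of the NMDA list, lay within 1 control region of 4338 bp at percentile 73.2 of its own. At these 3 the first replicate column ran from 29.2 to 34.8 and the second from 11.2 to 19.7. At Klf10 (chr15:38296633-38301926) they had 237, 72.0 and 32.2, and the last 2, at percentiles 42.9 and 16.7 of the NMDA list, lay within 1 control region at percentile 55.2 of its own. The chain at Fosb and Rtn2 overlapped a control chain, and those at Nr4a3 and Klf10 did not. Control thus had a host count of 0 with 1 summit inside Fosb, 1 inside Nr4a3 and 2 inside Klf10.

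Later activity-regulated genes, many of which encode secreted factors, hosted 0 NMDA chains and 1 control chain among 20 members. The control chain lay in Bdnf, which encodes a neurotrophin (chr2:109691357-109695418), and it is named after its values were seen. Its regions had 44.2, 96.8 and 343, and the first was control-only. At the other 2 the NMDA regions were at percentiles 5.26 and 82.1 of their list, and the control regions at 31.1 and 78.4 of theirs.

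Synaptic genes hosted an NMDA chain in 6 of 30 cases, or 20.0% (9.51 to 37.3), and a control chain in 1 of 30, or 3.33% (0.591 to 16.7). These genes are long, with a median span of 118620 bp. With the NMDA list limited to the size of the control list the count was 3. Among them were the L-type calcium channel gene Cacna1c, the postsynaptic scaffold genes Shank2 and Shank3 and the NMDA receptor subunit gene Grin2a, with Shank3 and Grin2a named after their values were seen. Shank2 hosted a chain in both lists, with regions at percentiles 91.4, 70.4 and 86.4 of the NMDA list and 67.8, 82.9, 66.9 and 80.1 of the control list. In Cacna1c (190, 18.9 and 318) and Grin2a (366, 23.2 and 74.7) every region was shared and 2 lay within 1 control region. In Shank3 (74.3, 37.4 and 22.3) the weakest region was NMDA-only.

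Forebrain developmental transcription factor genes hosted NMDA chains in 3 of 40 cases (Bcl11a, Emx2 and Pou3f2) and control chains in 2 (Bcl11a and, named after its values were seen, Irx2). Bcl11a, a zinc finger gene, had regions at percentiles 36.9, 5.08 and 70.4 of the NMDA list and 46.6, 12.7 and 60.4 of the control list. Emx2, a homeobox gene, had 344, 28.5 and 37.1, and the region with 37.1 was NMDA-only. Pou3f2, a POU domain gene, had 48.4, 44.0 and 45.8 with NMDA, all shared, with control summits too far apart for a chain. Cytosolic ribosomal protein genes hosted NMDA chains in 3 of 84 cases (Rpl18, Rpl22 and Rpl3), or 3.57% (1.22 to 9.98). They hosted a control chain in 1 case (Rpl22), or 1.19% (0.210 to 6.44). Both of these intervals include the shares of all genes. With any member within 1 kb of the span there were 9 ribosomal protein genes in each list. Rpl22 had regions at percentiles 28.5, 62.0 and 96.8 of the NMDA list and 14.5, 44.5 and 94.2 of the control list. At Rpl18 the regions had 24.2, 29.0 and 42.8, of which the last was shared, and at Rpl3 113, 21.1 and 97.6, of which the middle one was NMDA-only. The Rpl3 chain overlapped a control chain, and the control list had 1 summit inside Rpl3. Zfp genes hosted 6 NMDA and 4 control chains among 397, or 1.51% (0.694 to 3.26) and 1.01% (0.392 to 2.56), and both intervals include the shares of all genes. At Zfp341 the chain of 4 had 25.8, 77.3, 43.0 and 24.3, and the region with 43.0 alone was shared. Zfp335 had 39.4, 48.8 and 101, with the region of 39.4 NMDA-only, and Zfp407 had 209, 20.8 and 175, with that of 20.8 NMDA-only.

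No chain of either list was hosted by the 17 genes for CTCF, cohesin and topoisomerases, the 57 clustered protocadherins, the 39 Hox genes, the 67 replication-dependent histone genes or the 1106 olfactory receptor genes. By the Wilson interval, 0 hosts allow a share of up to 18.4% for the CTCF, cohesin and topoisomerase list and 6.31% for protocadherins. The upper limit was 8.97% for Hox genes and 5.42% for histone genes. All of these limits lie above the shares of all genes, 2.08% with NMDA and 1.59% in control. The limit for olfactory receptor genes, 0.346%, lies below both shares. Histone, olfactory receptor and Hox genes are short, with median spans of 492, 950 and 3737 bp, in which a chain has little room. Among 23 imprinted genes 0 hosted an NMDA chain and 1 a control chain. This was Gnas, which encodes a G protein subunit and is named after its values were seen, with 41.2, 48.4 and 191 in control, of which the region with 41.2 was control-only.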

How the data were processed

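The authors deposited 1 region list per condition, whose name marks it as a product of IDR (irreproducible discovery rate) filtering over 2 replicates. The submitters' processing notes name BWA, MACS2, SAMtools, Trimmomatic and FastQC and the builds mm10 and GRCm38.p6, without versions or settings. The deposited score rises with reproducibility from 540 to a ceiling of 1000 in both lists. Signal means the −log10 p-value that the authors deposited for each region. For NMDA it matched the sum of the deposited values of both replicates in 36186 of 36186 regions, within a tolerance of 0.001. The control list has 10 columns and no values per replicate, so this was not checked there.

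Regions off the assembled chromosomes were left out (7 NMDA and 5 control). Chains, overlaps of at least 1 bp, 95% Wilson and Newcombe intervals and percentiles were computed with Python 3.11.15, pandas 2.3.3, numpy 2.4.6 and scipy 1.17.1, and chaining, overlap and intervals were tested on simulated data. No shuffling or set test was run. Gene spans were those of RefSeq on GRCm38.p6, the assembly behind mm10. Shares at transcription starts and of promoters use a RefSeq promoter table that covers 20 of the 21 chromosomes. Of 30 imprinted gene names 23 matched a protein-coding gene.

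The members and the gene lists were chosen with earlier results of these data known. Named by rule were the 10 NMDA chains with the most regions, up to 5 without a control region, the 5 strongest with every region shared, the 5 longest control chains without an NMDA chain, the 5 genes with the most members in each list and up to 3 hosts of each gene list. Unnamed gene models were skipped, and names outside the rule are marked in the text. Some genes that the rule names are not reported here. The alternatives tried were other chaining distances and sizes, a stricter IDR, lists of equal size, merging of close regions, other definitions of overlap, host and gene end, and single replicate columns.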

Additional observations from a re-analysis of the deposited data

How the results depend on the processing

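The numbers of chains scaled with the rule. Summits at most 2.5 kb apart gave 133 NMDA and 110 control chains, 82 host genes, 82.9% of NMDA members overlapping a control region, 33.1% of NMDA chains overlapping a control chain, a median percentile of 37.6 and 21.5% of members at a gene end. At most 10 kb gave 2117 NMDA and 1841 control chains, 1225 host genes, 69.0% of chains matched and a median percentile of 51.6. Chains of 4 or more numbered 158 and 131, with 95 host genes and 50.6% overlapping a control chain of 4 or more. An IDR of 0.01 or better gave 442 and 344 chains, 224 host genes and a median percentile of 53.3. With lists of equal size 88.9% of members and 66.0% of chains were matched. Overlap of members was 75.6% with a reciprocal 50%, 74.8% with summits within 100 bp and 86.9% with control regions extended by 500 bp. Genes with 1 summit within 1 kb of the span numbered 786. The share at gene ends was 24.4% with all gene types, 12.1% within 500 bp and 15.5% at transcription starts. The first replicate column alone gave a median percentile of 51.6. The difference in overlap between members and other NMDA regions, −0.0734 points as reported, became 0.749 at 10 kb, 1.06 in chains of 4 or more, 3.08 at an IDR of 0.01, 0.686 with lists of equal size, 1.95 with extended regions and 1.69 standardised over signal, and −4.28 and −4.11 with the stricter overlaps. The difference at gene ends had an interval that included 0 in chains of 4 or more (2.71), at an IDR of 0.01 (1.000), with lists of equal size (1.21), with regions at most 100 bp apart merged (1.46), within 500 bp (0.287) and at transcription starts (0.140). The difference inside genes between NMDA-only and shared members included 0 at 2.5 kb (9.88) and in chains of 4 or more (7.98), as did the difference in host genes between unmatched and matched NMDA chains (14 and 2.72). At 10 kb these differences were 5.39 and 5.53. Fewer chains enter these. The transcription starts, the standardised difference and the replicate summits were chosen after seeing the data. So were the last 2 differences themselves, inside genes and in host genes, with all their settings. For the other changes the cause was not tested. No paired analysis was possible because each condition is 1 list over both replicates, so no replicate could be left out either. Read depth is unknown and limits every comparison between the lists, and a region missing from a list may lie just under its threshold.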
